A study of Mus musculus with 20 samples.

Results

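MiR-146a and miR-146b are microRNAs made from separate genes that carry the same seed. All rows named for either one (mmu-miR-146a-5p, mmu-miR-146b-5p and their 3p arms) were taken, which gave 4 arms of the 1886 miRNAs listed. Small RNA was sequenced from primary midbrain neurons of C57Bl6/J mouse embryos. The ventral mesencephalon was dissected at embryonic day 12.5, the meninges were removed and the cells were grown serum-free in Neurobasal-A with B27. The 4 groups were cells collected at day 5 in vitro (DIV5) after 10 ng/ml of glial cell line-derived neurotrophic factor (GDNF), DIV5 cells without GDNF, DIV1 cells after 10 ng/ml of GDNF, and DIV1 cells without GDNF. Each group had 5 libraries, and the cultures are primary and mixed, with no sort for a cell type given in the labels. Nothing in the labels says whether the libraries of a group came from separate cultures or embryos, so p-values measure the spread between libraries only.

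A microRNA guides the silencing complex to transcripts that pair with its seed, bases 2 to 8, and lowers their translation and stability. MiR-146a is known as a gene induced by NF-kB in myeloid cells, where with miR-146b it represses Irak1 and Traf6, adaptors that pass on Toll-like receptor and interleukin-1 signals. In brain both are known from microglia and astrocytes as well as neurons. GDNF, a ligand of the Ret receptor, is known to support the survival of midbrain dopaminergic neurons.

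The mature sequences below show what the arms share. They are taken from RefSeq (GRCm38.p6), which held all 4 arms, and are written 5′ to 3′ with the seed in capitals.
miR-146b-5p: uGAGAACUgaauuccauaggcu
miR-146a-5p: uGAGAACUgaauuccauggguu
miR-146b-3p: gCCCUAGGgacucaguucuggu
miR-146a-3p: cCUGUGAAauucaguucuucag
The 5p arms are identical over their first 17 bases and differ at 2 of 22, G18A and U21C (the miR-146a base first, the position from the 5′ end, then the miR-146b base). With those 2 bases in capitals they read as follows.
miR-146b-5p: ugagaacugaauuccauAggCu
miR-146a-5p: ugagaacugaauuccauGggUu
Among 1679 mature mouse miRNAs in the RefSeq table, only these 2 carry the seed GAGAACU, and each 3p arm has a seed of its own. How reads that match both genes were assigned is not given in the sources used here, and no library had a read in the tally of ambiguous or multiply aligned reads. A shorter read could have been counted for either gene or left out before counting, and the tallies do not tell which.

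The hairpins lie in different surroundings in GRCm38. Mir146, the gene of miR-146a, is at chr11:43374397-43374461 on the minus strand, overlaps no annotated gene and is 45789 bp from the nearest coding gene, Pttg1. Mir146b is at chr19:46342762-46342870 on the plus strand, within an intron of Mfsd13a, which is on the same strand.

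Libraries held 420118 to 4324505 miRNA reads, and 542 miRNAs passed the filter on low counts. DIV5 libraries 1 and 2 of both treatments had 1061619 to 1907937 reads, and libraries 3 to 5 had 2969524 to 4324505. Levels are read counts scaled to library size as CPM with factors from the trimmed mean of M values (TMM), on which 1 read is worth 0.198 to 2.60 CPM. The summed CPM of neuron-enriched miRNAs was 15167 to 19501 in DIV5 GDNF, 15732 to 23763 in DIV5 control, 5907 to 8712 in DIV1 GDNF and 5459 to 8904 in DIV1 control libraries. MiR-124-3p, a neuronal miRNA, averaged 6044, 6064, 2443 and 2359 CPM in the same order. Its other arm, miR-124-5p, went the other way, at 108, 117, 275 and 275 CPM, so members of the neuron list did not all move alike. Progenitor-enriched miRNAs summed to 18489 to 23090, 13758 to 21982, 51114 to 71000 and 48972 to 69675 CPM. Microglial and blood markers summed to 4232 to 6393, 3310 to 5355, 2364 to 3344 and 2267 to 3106 CPM, most of it miR-486a/b-5p, an erythroid and muscle miRNA, which averaged 5779, 4434, 2787 and 2545 CPM. On the same list miR-142a-5p, a haematopoietic miRNA, averaged 16.5, 16.3, 75.8 and 70.4 CPM, and miR-223-3p, a myeloid miRNA, 0.267, 0.869, 3.23 and 2.4 CPM.

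Reads came almost wholly from the 5p arms. MiR-146b-5p had 70748 reads over the 20 libraries and miR-146a-5p had 2075, and both were found in every library. MiR-146b-3p had 30 reads in 14 libraries, at most 7 in 1 library, which is 0.0424% of the reads of its hairpin. MiR-146a-3p had no read, and a count of 0 over all libraries together allows up to 0.0763 CPM (3 reads, counting error only). Neither 3p arm could be tested.

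MiR-146b-5p was more abundant at DIV5 in every library. In the GDNF groups it was at 1648, 900.0, 1157, 1137 and 1438 CPM in DIV5 libraries 1 to 5, against 735, 611, 753, 586 and 432 CPM in DIV1 libraries 1 to 5. In the control groups it was at 3910, 1317, 1669, 1467 and 4970 CPM in DIV5 libraries 1 to 5, against 398, 516, 569, 497 and 582 CPM in DIV1 libraries 1 to 5. The lowest DIV5 library lay above the highest DIV1 library in both treatments. Control libraries 1 and 5 at DIV5 lay far above all other libraries.

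MiR-146a-5p followed no such order. It was at 34.6, 46.7, 25.3, 30.4 and 30.7 CPM in DIV5 GDNF libraries 1 to 5 and at 135.7, 45.4, 26.9, 28.5 and 130.6 CPM in DIV5 control libraries 1 to 5. At DIV1 it was at 83.3, 58.4, 45.5, 41.8 and 46.8 CPM in GDNF libraries 1 to 5, and at 28.3, 23.8, 53.1, 35.3 and 48.0 CPM in control libraries 1 to 5. The same DIV5 control libraries, 1 and 5, were highest, and otherwise the groups overlap. These levels rest on 18 to 598 reads per library, against 166 to 22765 reads for miR-146b-5p.

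**Figure D1:**
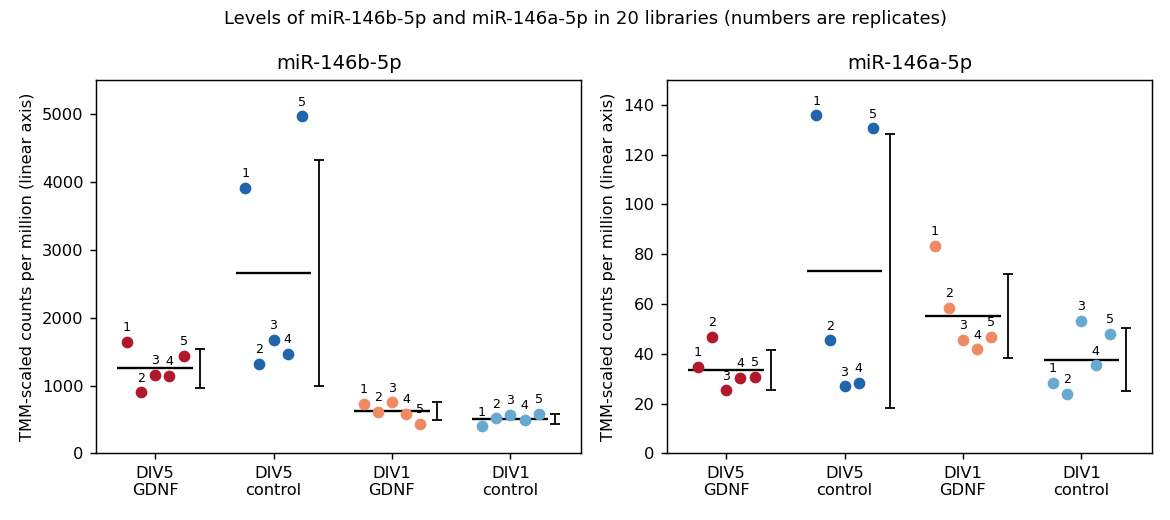
TMM-scaled CPM of miR-146b-5p (left) and miR-146a-5p (right) in each library, by group, on linear axes; lines are means, bars 1 SD to either side of the mean, and numbers the replicate. DIV5 control libraries 1 and 5 stand above all others in both panels, at 3910 and 4970 CPM for miR-146b-5p and 135.7 and 130.6 CPM for miR-146a-5p.

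The order of group means put miR-146b-5p highest in DIV5 control (2667 ± 1667 CPM, SD, n = 5), then DIV5 GDNF (1256 ± 290), DIV1 GDNF (623 ± 130) and DIV1 control (513 ± 73.1). Without libraries 1 and 5, DIV5 control stood at 1484 ± 177 CPM (SD, n = 3). Neighbours within a day lie within their spread of each other, and the days do not. MiR-146b-5p ranked 52 of 542 in DIV5 control (76 without libraries 1 and 5), 76 in DIV5 GDNF, 96 in DIV1 GDNF and 112 in DIV1 control. MiR-146a-5p ordered as DIV5 control (73.4 ± 55.0 CPM), DIV1 GDNF (55.2 ± 16.9), DIV1 control (37.7 ± 12.6) and DIV5 GDNF (33.5 ± 8.07), and neighbours in that order did not differ beyond their spread. Without libraries 1 and 5, DIV5 control stood at 33.6 ± 10.3 CPM (SD, n = 3), next to DIV5 GDNF. MiR-146a-5p ranked 264 of 542 in DIV5 control (318 without libraries 1 and 5), 273 in DIV1 GDNF, 305 in DIV1 control and 317 in DIV5 GDNF.

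MiR-146b-5p rose with time in culture. In cells without GDNF it was 5.20-fold higher at DIV5 than at DIV1, a log2 change of 2.38 ± 0.315 (SE; edgeR quasi-likelihood test, Benjamini-Hochberg adjusted p = 2.80e-06). Without DIV5 control libraries 1 and 5 it was 2.90-fold higher (log2 1.56 ± 0.183, adjusted p = 6.99e-07). In cells with GDNF it was 2.02-fold higher (log2 1.01 ± 0.302, adjusted p = 0.00879). Of the 542 miRNAs tested, 60.7% were called between days without GDNF (31.4% higher and 29.3% lower at DIV5) and 52.4% with GDNF (25.1% higher and 27.3% lower), so a call is common here. By the size of the rise miR-146b-5p ranked 22 of 542 without GDNF and 81 with GDNF. Between days, a larger share of cells of a type and more of the miRNA per cell cannot be told apart in such cultures. The neuron, progenitor, and microglial and blood sums moved with the day as given above. Astrocyte markers summed to 3280 to 4766 CPM in DIV5 GDNF, 2979 to 4292 in DIV5 control, 5593 to 6665 in DIV1 GDNF and 6004 to 7103 in DIV1 control libraries. Oligodendrocyte markers summed to 334 to 460, 356 to 552, 736 to 936 and 742 to 938 CPM in that order. The part of any of these lists in this result was not tested.

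MiR-146a-5p did not move the same way in both treatments. Without GDNF it was higher at DIV5 (1.95-fold, log2 0.99 ± 0.407, edgeR adjusted p = 0.0425). That call rested on the DIV5 control libraries that stand apart: without libraries 1 and 5 the log2 change was -0.16 ± 0.287 (adjusted p = 0.664), a fold of 0.891. Leaving out 1 library at a time also ended it for DIV5 control 1 (adjusted p = 0.152) and 5 (0.149) and for DIV1 control 1 (0.0852), 2 (0.0925) and 4 (0.0666). With GDNF the log2 change was -0.72 ± 0.403 (0.608-fold, edgeR adjusted p = 0.139), and without DIV5 control libraries 1 and 5, which do not enter that contrast but enter the shared estimate of spread, it was -0.69 ± 0.243 (adjusted p = 0.0194). In that narrower fit 60.2% of 530 miRNAs were called with GDNF (31.5% higher and 28.7% lower at DIV5) and 53.8% without GDNF (27.4% higher and 26.4% lower).

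The ratio of the 2 miRNAs within a library, which needs no scaling between libraries, was higher at DIV5. MiR-146b-5p gave 47.6, 19.3, 45.8, 37.4 and 46.8 reads per read of miR-146a-5p in DIV5 GDNF libraries 1 to 5, against 8.82, 10.5, 16.6, 14.0 and 9.22 in DIV1 GDNF libraries 1 to 5. In controls the ratio was 28.8, 29.0, 62.1, 51.5 and 38.1 in DIV5 libraries 1 to 5, against 14.1, 21.7, 10.7, 14.1 and 12.1 in DIV1 libraries 1 to 5. No DIV5 library had a ratio below the DIV1 libraries of its treatment. DIV5 control libraries 1 and 5, though highest for both miRNAs, had ratios of 28.8 and 38.1, against 29.0, 62.1 and 51.5 in controls 2 to 4. Library 1 was thus the lowest of its group, next to library 2. Put as a share, miR-146a-5p made up 1.59% of the pair in DIV5 control library 3 (95% exact binomial interval 1.33 to 1.87, counting error only) and 10.2% in DIV1 GDNF library 1 (7.86 to 12.9).

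The mean log2 ratio rose by 1.72 at DIV5 with GDNF and by 1.52 without GDNF (exact two-sided permutation test, p = 0.00794 for each, the smallest that 5 against 5 libraries allow; adjusted over 4 comparisons, 0.0159). Without DIV5 control libraries 1 and 5 the rise without GDNF was 1.69 (exact permutation p = 0.0179, adjusted 0.0357). Within DIV5 libraries 3 to 5 it was 1.92 with GDNF and 1.83 without GDNF. Within DIV5 libraries 1 and 2 it was 1.41 and 1.05, a design too small to pass the threshold after adjustment. GDNF did not shift the ratio detectably: the mean log2 difference was -0.09 at DIV5 (exact permutation p = 0.762, adjusted 0.762) and -0.29 at DIV1 (p = 0.270, adjusted 0.360).

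**Figure D2:**
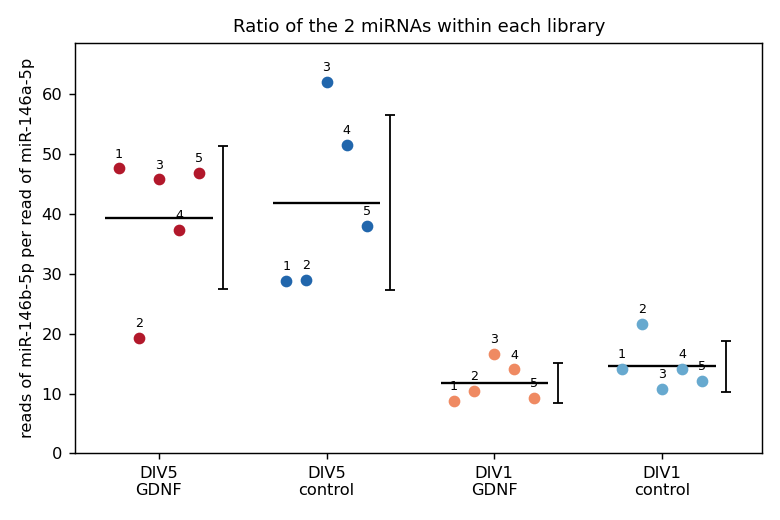
Reads of miR-146b-5p per read of miR-146a-5p in each library, by group, on a linear axis; lines are means, bars 1 SD to either side of the mean, and numbers the replicate. DIV5 groups average 39.4 (GDNF) and 41.9 (control), and DIV1 groups 11.8 (GDNF) and 14.5 (control).

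GDNF at DIV1 changed neither miRNA detectably. MiR-146b-5p averaged 623 CPM with GDNF and 513 CPM without (1.22-fold, log2 0.29 ± 0.302, edgeR adjusted p = 1). MiR-146a-5p averaged 55.2 CPM with GDNF and 37.7 CPM without (1.46-fold, log2 0.57 ± 0.419, adjusted p = 1). Of all 542 miRNAs 0 (0%) were called by edgeR, 7 had an unadjusted p under 0.05, and DESeq2 and limma voom called 0 as well. Without DIV5 control libraries 1 and 5, which enter this contrast only through the shared estimate of spread, miR-146b-5p had log2 0.26 ± 0.164 (edgeR unadjusted p = 0.133, adjusted p = 0.996). MiR-146a-5p had 0.55 ± 0.255 there (unadjusted p = 0.0448, adjusted p = 0.996), and its p ranked 8 of 530. That fit called 0 of 530 miRNAs.

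GDNF at DIV5 went with lower means of both miRNAs, but neither passed the test. MiR-146b-5p averaged 1256 CPM with GDNF and 2667 CPM without (0.471-fold, log2 -1.09 ± 0.301, edgeR unadjusted p = 0.00175, adjusted p = 0.0697). It was lower with GDNF in 5 of 5 same-numbered pairs, and its p ranked 13 of 542. MiR-146a-5p averaged 33.5 CPM with GDNF and 73.4 CPM without (0.457-fold, log2 -1.14 ± 0.392, unadjusted p = 0.00854, adjusted p = 0.127), lower in 3 of 5 pairs. In this comparison 0.185% of miRNAs were called, namely miR-182-5p alone (named after its value was seen), higher at 1182 ± 317 CPM with GDNF against 432 ± 255 CPM without (log2 1.46, adjusted p = 0.0193). DESeq2 called 26 miRNAs, miR-146b-5p among them (log2 -1.11, adjusted p = 0.0153), and limma voom called 1. With the replicate block edgeR called 3, neither member among them (log2 -0.89, adjusted p = 0.0768 for miR-146b-5p).

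Those differences were smaller without DIV5 control libraries 1 and 5. Against controls 2 to 4 alone, DIV5 GDNF averaged 0.846-fold for miR-146b-5p (log2 -0.25 ± 0.184, edgeR adjusted p = 0.999) and 0.999-fold for miR-146a-5p (log2 0.012 ± 0.275, adjusted p = 0.999). With the replicate number as a block, which leaves the same-numbered pairs 2 to 4 to set the difference at DIV5, the log2 differences were -0.51 ± 0.163 for miR-146b-5p (edgeR unadjusted p = 0.00982, adjusted p = 0.176) and -0.022 ± 0.232 for miR-146a-5p (adjusted p = 0.992). MiR-146b-5p was lower with GDNF in each of those pairs. That fit called 4 miRNAs, neither member among them. Without the block 0 of 530 miRNAs were called by edgeR, 8 had an unadjusted p under 0.05, and no other tool was run. In the other direction, leaving out DIV5 control 2, 3 or 4 brought miR-146b-5p past the threshold (adjusted p = 0.0120, 0.0279 and 0.0206), and leaving out control 3 or 4 did so for miR-146a-5p (0.0340 and 0.0313). Within DIV5 libraries 1 and 2 the log2 differences were -1.17 for miR-146b-5p and -1.30 for miR-146a-5p, and within libraries 3 to 5 they were -1.07 and -1.05, each set holding 1 of the libraries that stand apart. None of these passed (adjusted p = 0.201 to 0.408).

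The GDNF difference at DIV5 minus that at DIV1 was log2 -1.37 ± 0.426 for miR-146b-5p (edgeR unadjusted p = 0.00423, adjusted p = 0.436) and -1.71 ± 0.573 for miR-146a-5p (unadjusted p = 0.00725, adjusted p = 0.436). Of 542 miRNAs 0 (0%) were called, 50 had an unadjusted p under 0.05, and DESeq2 and limma voom called 0. Without DIV5 control libraries 1 and 5 the values were -0.51 ± 0.246 for miR-146b-5p and -0.53 ± 0.374 for miR-146a-5p (adjusted p = 0.997 for each).

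**Figure D3:**
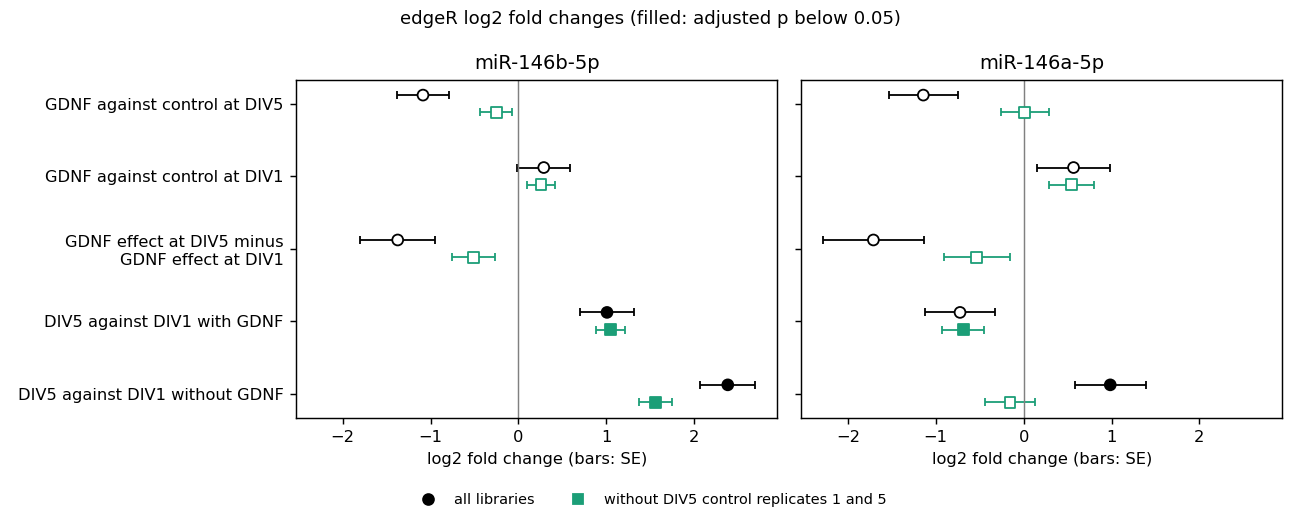
Log2 fold changes of miR-146b-5p (left) and miR-146a-5p (right) in the 5 contrasts, with SE bars, from all libraries (circles) and without DIV5 control libraries 1 and 5 (squares); filled marks have an edgeR adjusted p below 0.05. Between days miR-146b-5p is filled in both fits, and for miR-146a-5p the call without GDNF is lost and the one with GDNF gained when the 2 libraries are left out.

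The same DIV5 control libraries were high for a minority of miRNAs. Among 542 tested, 43 (7.93%) were at least 2-fold above the mean of controls 2 to 4 in both libraries, 3 were at least 2-fold below it in both, and the median fold was 0.974. Both members were among the 43. By the size of the fold, miR-146a-5p ranked 22 (133 CPM in controls 1 and 5, against 33.6 CPM in controls 2 to 4) and miR-146b-5p ranked 33 (4440 CPM against 1484 CPM). Against the DIV5 GDNF libraries, controls 1 and 5 averaged 3.97-fold for miR-146a-5p and 3.54-fold for miR-146b-5p.

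**Figure D4:**
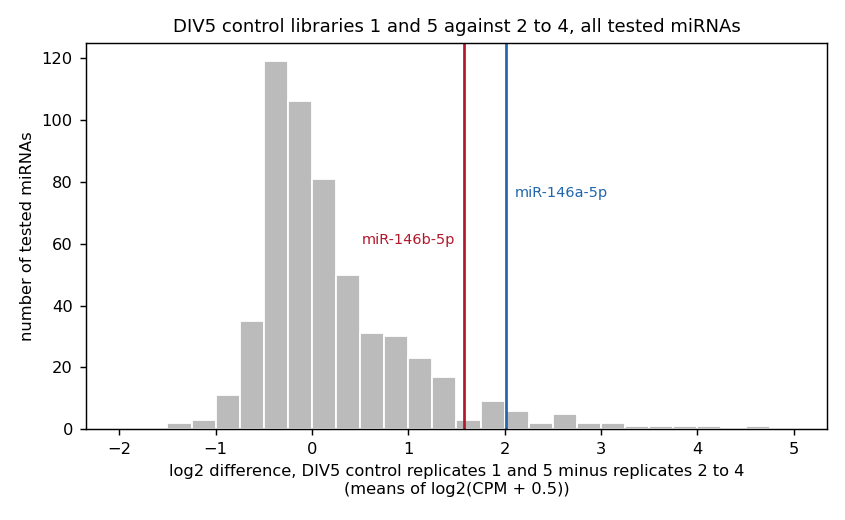
Number of tested miRNAs (y axis) by log2 difference between DIV5 control libraries 1 and 5 and libraries 2 to 4 (x axis, means of log2 of CPM + 0.5). MiR-146b-5p lies at 1.58 and miR-146a-5p at 2.01, in the right tail.

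Marker miRNAs of other cell types were read in those 2 libraries. The microglial and blood list (12 arms, 4 tested) summed to 3310 and 3579 CPM in DIV5 control libraries 1 and 5, against 4919 to 5355 CPM in controls 2 to 4. Most of that sum was again miR-486a/b-5p, at 3277 and 3566 CPM, against a mean of 5110 CPM in controls 2 to 4. MiR-223-3p had no read in either library, and miR-142a-5p was at 12.7 and 5.90 CPM, against a mean of 21.0 CPM in controls 2 to 4. The astrocyte list (13 arms, 6 tested) summed to 3892 and 2979 CPM in libraries 1 and 5, against 3451 to 4292 CPM in controls 2 to 4. Most of that sum was miR-21a-5p (2363 and 2356 CPM, against a mean of 2828) and miR-143-3p (1306 and 399 CPM, against 709). MiR-449a-5p was higher in both libraries (33.0 and 24.7 CPM, against 9.13). MiR-21a-5p, miR-21a-3p and miR-29a-3p were lower in both, and miR-143-3p and miR-31-5p were higher in library 1 only. Between days without GDNF miR-143-3p fell (log2 -2.10, edgeR adjusted p = 7.9e-04), as did the 3 called members of the vascular list. MiR-21a-5p was not called there (adjusted p = 0.104). Which cell types the astrocyte sum reflects was not tested. The neuron list (16 arms, 13 tested) summed to 21510 and 18950 CPM in libraries 1 and 5, against 15732 to 23763 CPM in controls 2 to 4. MiR-128-3p (10984 and 6407 CPM, against a mean of 8938) and miR-124-3p (5826 and 6118 CPM, against 6125) made up most of it. MiR-137-3p was higher in both libraries (751 and 1719 CPM, against 204). So were miR-124-5p, miR-137-5p, miR-138-2-3p, miR-218-1-3p and miR-218-5p, by less. MiR-124-3p, miR-128-1-5p and miR-129-1-3p were lower in both, and the rest were mixed. The progenitor list (6 arms, 6 tested) summed to 13758 and 17500 CPM, against 19683 to 21982 CPM. Most of that sum was miR-92b-3p, at 12624 and 16211 CPM, against a mean of 20263 CPM in controls 2 to 4. MiR-17-5p (658 and 727 CPM, against 463) and miR-20a-5p (315 and 387 CPM, against 248) were higher in both libraries. So were miR-17-3p (107 and 96.1 CPM, against 76.5) and miR-92b-5p (39.1 and 57.0 CPM, against 13.8). MiR-20a-3p was lower in library 1 and higher in library 5. The vascular list (10 arms, 7 tested) summed to 360 and 244 CPM, against 207 to 390 CPM. Within it miR-126a-3p (63.6 and 40.4 CPM, against a mean of 21.3) and miR-145a-5p (18.9 and 9.17 CPM, against 3.67) were higher in both libraries. MiR-199a/b-3p (118 and 150 CPM, against 153) and miR-199a-5p (12.7 and 22.9 CPM, against 23.8) were lower in both. The other tested members went different ways in the 2 libraries. The oligodendrocyte list (5 arms, 3 tested) was the one whose sum was higher in both libraries, at 459 and 552 CPM, against 356 to 429 CPM; its part in these levels was not tested. Within it miR-219a-2-3p was at 348 and 411 CPM, against a mean of 218 CPM in controls 2 to 4, and miR-219a-1-3p was at 94.7 and 121 CPM, against 156 CPM. In the GDNF comparisons 0 tested members of these 6 lists were called by edgeR. Between days without GDNF, edgeR called 8 higher and 3 lower of the neuron list, 1 and 3 of the microglial and blood list, 2 and 2 of the astrocyte list, 1 and 2 of the oligodendrocyte list, 0 and 3 of the vascular list and 0 and 5 of the progenitor list, beside 31.4% higher and 29.3% lower over all miRNAs.

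Other miRNAs linked to innate immune signalling and NF-kB were listed (19 arms, all with at least 1 read, 13 tested; miR-223 and miR-21a are also on marker lists). In the GDNF comparisons 0 of 13 were called by edgeR, with a median log2 change of 0.07 at DIV5 and 0.03 at DIV1, beside 0.00 and 0.03 over all miRNAs. Between days without GDNF 7 rose and 2 fell (median 0.46 beside 0.10 over all miRNAs), and with GDNF 6 rose and 2 fell (median 0.20 beside 0.00). Over all miRNAs 60.7% were called without GDNF and 52.4% with GDNF, so the number of list members called in either direction is near the background. By direction, 31.4% of all miRNAs were higher and 29.3% lower without GDNF, and 25.1% and 27.3% with GDNF. The list held a larger share of rises than that, but both arms of miR-132 and miR-212 made up most of them in each treatment. The other rises were miR-125b-5p and miR-125b-2-3p in both treatments and miR-9-3p without GDNF. Whether the list without miR-132 and miR-212 differs from the background was not tested. MiR-9-5p, a neural miRNA known to target Nfkb1, averaged 74328 CPM in DIV5 GDNF, 67007 CPM in DIV5 control, 74238 CPM in DIV1 GDNF and 72488 CPM in DIV1 control, and was not called between days. MiR-125b-5p, known to target Tnf, averaged 38171, 32239, 21397 and 20395 CPM in the same groups, and rose between days with GDNF (log2 0.84, edgeR adjusted p = 0.00148) and without GDNF (0.66, adjusted p = 0.00696).

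Both arms of miR-132 and miR-212, activity-induced neuronal miRNAs, were among those that rose (chosen after their values were seen). MiR-132-3p averaged 615 CPM in DIV5 GDNF, 978 CPM in DIV5 control, 211 CPM in DIV1 GDNF and 194 CPM in DIV1 control. DIV5 control libraries 1 and 5 were at 1988 and 1058 CPM, and controls 2 to 4 averaged 615 CPM. MiR-155-5p, which NF-kB induces in macrophages, was also looked at after its values were seen. It averaged 4.18 CPM in DIV5 GDNF, 9.19 CPM in DIV5 control, 14.2 CPM in DIV1 GDNF and 12.2 CPM in DIV1 control. It fell between days with GDNF (log2 -1.71, edgeR adjusted p = 0.00111). Without GDNF its log2 change was -0.41 (adjusted p = 0.354), and -1.27 without DIV5 control libraries 1 and 5 (adjusted p = 0.0023). It was at 18.4 and 12 CPM in DIV5 control libraries 1 and 5, against a mean of 5.19 CPM in controls 2 to 4. It was 1 of 13 tested list members at least 2-fold higher in both, near the 7.93% over all miRNAs. The neuron, astrocyte, vascular and progenitor lists also had 1 such member each (miR-137-3p, miR-449a-5p, miR-145a-5p and miR-92b-5p).

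The miRNAs whose profile over libraries was most like that of each member were found by Spearman's rho among 437 miRNAs with a mean of at least 10 CPM. This is a description, since the points share library, group and day. For miR-146b-5p over 20 libraries they were miR-194-5p (0.94), miR-384-5p (0.93), miR-29c-3p (0.91), miR-7a-5p (0.91) and miR-379-5p (0.89), and the first 4 were again the first 4 in 18 libraries without DIV5 control 1 and 5 (0.92, 0.91, 0.88 and 0.87). For miR-146a-5p over 20 libraries they were miR-26b-3p (0.72), miR-26b-5p (0.68), miR-135a-1-3p (0.67), miR-3535 (0.65) and miR-16-5p (0.64). Over 18 libraries they were miR-21a-5p (0.79), miR-30d-3p (0.77), miR-10b-5p (0.74), miR-26b-3p (0.74) and miR-16-5p (0.72).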

How the data were processed

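Small RNA libraries (TruSeq) were trimmed with cutadapt 1.8.1, aligned with STAR 2.4.1d to mm10 and counted with HTSeq, per the submitters' processing notes. The files deposited hold 1 library each, as unscaled whole-number read counts for every miRNA. The annotation and the handling of multiply aligned reads are not given in the sources used here. The __no_feature line, 9.51 to 22.6% of reads, was left out. It held 16.5 to 22.6% of reads in DIV1 libraries and 17.7 to 19.5% in DIV5 libraries 1 and 2 of both treatments. In DIV5 libraries 3 to 5 it held 9.51 to 13.3%. The part of this difference in the results was not tested.

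Counts were tested with edgeR 4.0.16 in R 4.3.3 (filterByExpr, TMM, robust quasi-likelihood fit of all 20 libraries, 542 miRNAs, Benjamini-Hochberg adjustment over all, threshold 0.05, two-sided). Alternatives were DESeq2 1.42.0, limma voom (limma 3.58.1), other scalings and filters, libraries left out and a replicate block. The log2 ratio of the members (pseudocount 0.5 reads) was tested by exact permutation. The scripts were tested on simulated counts. No 2 libraries of a group differed by less than sampling noise (lowest chi-square per degree of freedom 10.6).

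At DIV5, same-numbered GDNF and control libraries deviated together (correlations 0.208 to 0.514, each best with its own number), so numbers pair them there. At DIV1 (0.00624 to 0.474) GDNF libraries 1, 3 and 5 were best with their own number and libraries 2 and 4 were not, so pairing is unclear. Across days (-0.107 to 0.142) numbers do not pair them. MiRNAs named by rule were the 4 arms, the 2 most abundant of the immune list, any list member called with GDNF, and the 5 most alike in profile. Other miRNAs given by name, most of them members of the lists, fell outside that rule. Members and lists were chosen with earlier results of these data known.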

Additional observations from a re-analysis of the deposited data

How the results depend on the processing

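MiR-146b-5p was called higher at DIV5 in 22 of 22 alternatives in each treatment (log2 1.56 to 2.66 without GDNF, 0.90 to 1.28 with GDNF). Scaling by library totals moved the median of all miRNAs between days without GDNF to 0.36, against 0.10 with TMM, and the calls to 228 higher and 111 lower, against 170 and 159; relative to the median, miR-146b-5p changed by 2.30 and 2.28 and miR-146a-5p by 0.90 and 0.88. With GDNF that scaling called 166 higher and 117 lower, against 136 and 148.

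MiR-146a-5p between days without GDNF was called in 10 of 22. It missed the threshold with limma voom (0.71, adjusted p = 0.204), no filter (1.21, 0.0541), only the groups compared (1.00, 0.0980) and DIV5 libraries 3 to 5 (0.70, 0.160), and turned without DIV5 control 1 and 5 (-0.16). With a replicate block across days it was 0.77 (adjusted p = 0.106), and -0.10 with both changes. Leaving out 1 library gave 0.64 to 1.22. With GDNF it was called in 3 of 22: only the groups compared (-0.68), without DIV5 control 1 and 5 (-0.69), and that with the block (-0.69).

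For GDNF at DIV5, DESeq2 called miR-146b-5p (-1.11), leaving out 1 library gave -1.25 to -0.74 for miR-146b-5p and -1.36 to -0.78 for miR-146a-5p, and without DIV5 control 1 and 5 miR-146a-5p turned to 0.012. The replicate block within day gave -0.89 (adjusted p = 0.0768) and -0.83 (0.290) and changed no call of the members; with GDNF at DIV1 and in the difference between days none was called in any alternative. MiRNAs called over all with GDNF at DIV5 numbered 1, but 26 with DESeq2, 13 at a mean of 10 CPM, 3 with the block, 4 with the block and without DIV5 control 1 and 5, 2 within each set of DIV5 libraries, 0 with only the groups compared, 0 without DIV5 control 1 and 5, and 0 to 43 leaving out 1 library. The block without DIV5 control 1 and 5 called 2 at DIV1 and 5 in the difference between days, where DIV5 libraries 3 to 5 called 1.

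The ratio with GDNF at DIV5 turned to 0.067 within DIV5 libraries 1 and 2, and leaving out 1 library gave -0.21 to 0.14. Its day differences missed the threshold in sign-flip tests of pairs (replicate block; 1.72 with GDNF, 1.52 without; exact p = 0.0625, the smallest 5 pairs allow) and within DIV5 libraries 1 and 2 (1.41 and 1.05, exact p = 0.0476, adjusted 0.0952). Causes were not tested. Depth limits miR-146a-5p, with as few as 18 reads in a library.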

Other observations

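The share of miR-146b reads from the 3p arm was smallest in the DIV5 controls. Summed over libraries, miR-146b-3p had 17 reads beside 19580 reads of miR-146b-5p in DIV5 GDNF (0.0867% of both, 95% exact binomial interval 0.0505 to 0.139), and 8 beside 45678 in DIV5 control (0.0175%, 0.00756 to 0.0345). In DIV1 GDNF it had 3 beside 3173 (0.0945%, 0.0195 to 0.276), and in DIV1 control 2 beside 2317 (0.0862%, 0.0104 to 0.311). DIV5 control libraries 1 and 5 had 4 beside 31061 (0.0129%), and controls 2 to 4 had 4 beside 14617 (0.0274%, 0.00745 to 0.0700). The intervals cover counting error only, and no test over libraries was made on so few reads.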
